A study of Mus musculus with 12 samples.

Results

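Messenger RNA of mouse Th2 cells was compared between libraries labelled cKO (conditional knockout) and libraries labelled WT, gene by gene, across the autosomes. A gene was included when it lay on chromosomes 1 to 19 and had a mean of at least 10 normalized counts over the 6 RNA libraries, a rule that uses no difference between the genotypes. A gene with counts in a single genotype can also meet it. It was met by 15279 of the 25700 genes in the table. Each genotype had 3 RNA libraries (WT1 to WT3 and cKO1 to cKO3), 6 of the 12 samples of the series, and all were described as mouse T cells, with Th2 in the sample titles. The series title names NRF2, the protein encoded by Nfe2l2, and the stated setting is a mouse model of allergic asthma. The labels do not name the deleted gene or exon, the Cre driver, the age, sex or number of animals behind a library, the organ the cells came from or how they were cultured, so the second group is called cKO-labelled here. They also do not say that the 3 libraries of a group came from separate animals, so the p-values measure only the spread between these libraries, which may be technical.

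NRF2 is a transcription factor that is normally held in the cytoplasm and sent to the proteasome by KEAP1, the adaptor of a CUL3 ubiquitin ligase. Oxidants and electrophiles modify KEAP1, NRF2 then enters the nucleus, pairs with a small MAF protein and binds antioxidant response elements, which control genes for thioredoxin, peroxiredoxins, glutathione synthesis and NADPH supply. Th2 cells are the CD4 helper T cells that depend on GATA3 and make IL-4, IL-5 and IL-13, the cytokines of allergic inflammation.

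The column totals ran from 6431081 to 7372007 normalized counts. The commonest low value, taken as a single read, put the depth at about 5.39 to 7.41 M reads in WT against 7.27 to 8.71 M in the cKO-labelled libraries. In WT 15125 to 15203 members were above 0, against 15234 to 15257. T cell markers summed to 33934 to 37873 in WT against 30477 to 38765 in the cKO-labelled libraries, and no marker sum of 9 cell types, from B cells to erythroid cells, separated the groups. Myeloid and dendritic markers summed to 514, 671 and 522 in WT and 439.8, 558 and 456. The Th2 cytokine genes Il4 and Il5 were below the rule, with means of 2.23 and 6.25. The Y-linked gene Ddx3y was at 140.5, 123.4 and 132 in WT and listed at 0 in every cKO-labelled library, and Xist was at 3174 to 4047 in WT and 4331 to 7069, so sex makeup and genotype cannot be told apart.

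Nfe2l2 (chromosome 2, 75675513 to 75704663 in the mm10 build) was higher in the cKO-labelled libraries. It stood at 169.9, 155 and 147 normalized counts in the 3 WT libraries and at 453, 326 and 392 in the 3 cKO-labelled ones. Every cKO-labelled library lay well above every WT library, with no overlap. The change was 2.45-fold, or 1.29 on the log2(value + 1) scale used throughout (SE 0.22, limma adjusted p = 0.0438), and the authors' deposited table gives an adjusted p of 2.32e-05. The table has 1 value per gene, so reads from a deleted and an intact part of the transcript were not separated, and in bulk RNA fewer cells of a type and less RNA per cell cannot be told apart. Dropping WT2 gave an adjusted p of 0.0977, dropping WT3 0.216, dropping cKO1 0.324 and dropping cKO3 0.216.

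Most genes that control NRF2 had positive log2 changes below the threshold. Of 15 genes in the list of NRF2 and its regulators, 1 (Nfe2l2) rose, 0 fell and 11 had positive log2 changes. The list median was 0.32 (0.17 without WT2 and 0.48 without WT1), against 0.05 for all members, and 5 of the 15 (33.3%) had every cKO-labelled value above every WT value, against 7.66% of members. Sqstm1, the autophagy receptor p62 that binds KEAP1, was at 1383, 1113 and 1114 in WT and 1892, 1671 and 2066 (log2 change 0.64, adjusted p = 0.115). Cul3, the ligase scaffold, was at 755, 696 and 626 in WT and 1097, 928 and 1123 (0.60, adjusted p = 0.156). Both separated the groups without passing the threshold. Keap1, named here after its values were seen, was at 544, 428 and 612 in WT and 464, 443 and 552, with groups that overlapped (-0.11, adjusted p = 0.87).

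The windows before the starts of 4 of the changed genes, Nfe2l2, Prdx1, Sod1 and Nme1, hold the core of an antioxidant response element. Those of Nfe2l2 and the antioxidant enzymes Prdx1 and Sod1 are shown because they hold the letters that NRF2 and its relatives read. Sequences are from RefSeq on GRCm38.p6, the assembly of mm10, and run 5′ to 3′ along the gene. The capitals mark the core TGACNNNGC, searched on both strands from 250 bases before to 50 bases after each annotated start. The windows are chr2:75704871-75704913 (minus strand) for Nfe2l2, chr4:116685442-116685498 (plus strand) for Prdx1 and chr16:90220682-90220738 (plus strand) for Sod1.

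Nfe2l2: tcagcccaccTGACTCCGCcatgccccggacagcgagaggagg

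Prdx1: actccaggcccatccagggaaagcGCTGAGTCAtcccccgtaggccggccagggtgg

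Sod1: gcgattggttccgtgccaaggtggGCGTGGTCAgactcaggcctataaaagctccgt

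The core begins 240 bases before the start of Nfe2l2, 133 before that of Prdx1 and 56 before that of Sod1, and in Prdx1 and Sod1 it is on the opposite strand. In Nme1 it begins 213 bases before one annotated start, also on the opposite strand. In Prdx1 it overlaps an AP-1 site, TGANTCA, that begins 131 bases before the start. The core was in 1844 of the 11392 member promoters with an entry (16.2%), in 3 of 24 (12.5%) of the genes that fell and in 1 of 4 of those that rose. A match is a string of letters and was not tested for binding.

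**Figure D1:**
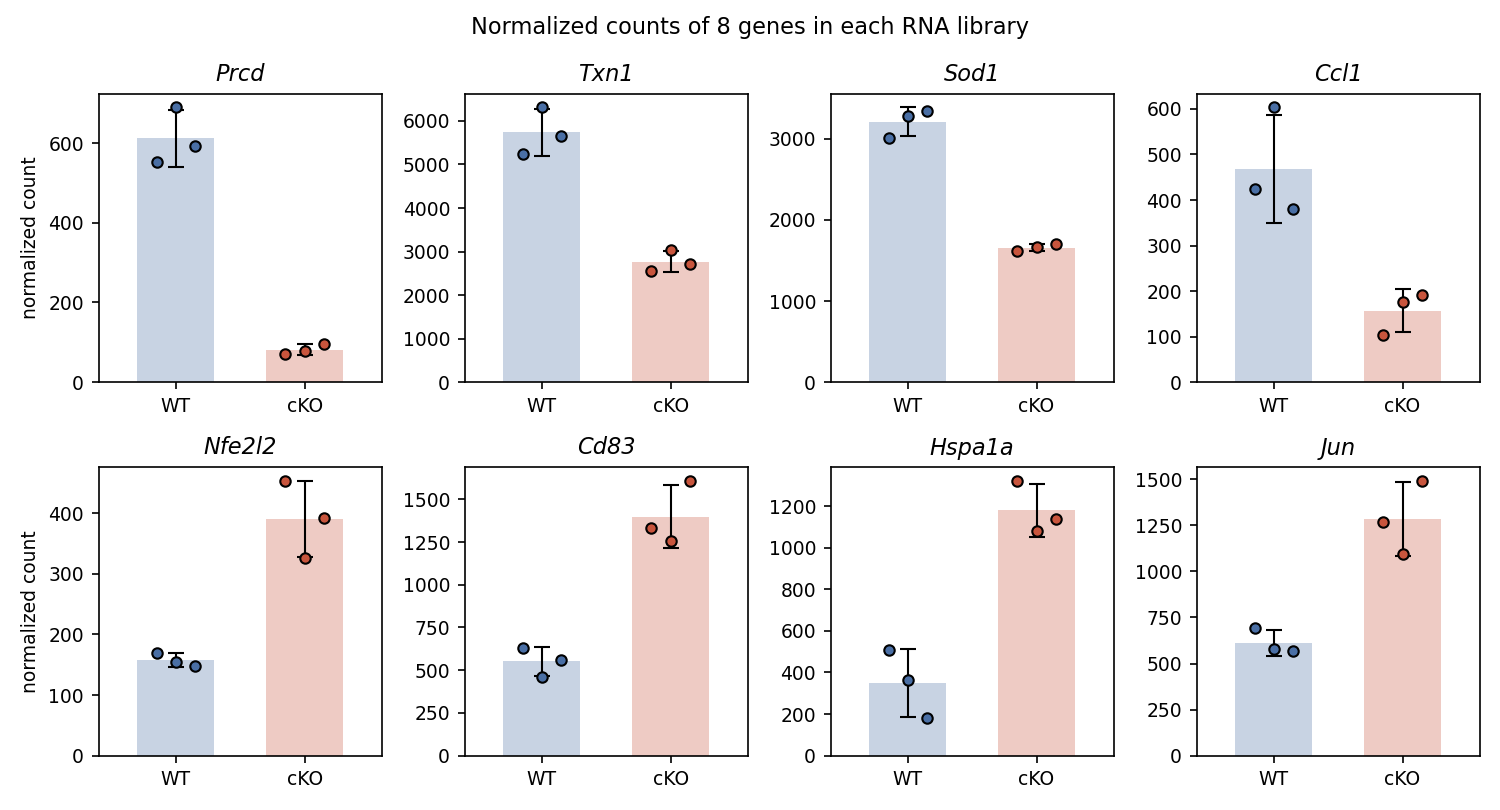
Normalized counts of 8 genes in the 3 WT and 3 cKO-labelled libraries. Bars are group means, error bars the SD and dots the libraries, on axes that start at 0. Prcd, Txn1, Sod1 and Ccl1 were lower and Nfe2l2, Cd83, Hspa1a and Jun higher in the cKO-labelled libraries, with no overlap of the dots in any panel.

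Past the threshold over all 18074 tested genes (37 genes, 0.205%) were 35 members, 29 of them lower (0.19% of members) and 6 higher (0.0393%). Of the 29, 21 had means above 500, a level reached by 3127 members, and they include genes of thioredoxin chemistry, nucleotide supply, RNA particles, ribosomes, mitochondria and mitosis. The 6 were Nfe2l2, Cd83, Jun, Hspa1a, Hspa1b and the pseudogene Gm15454. The 35 lay on 17 autosomes and 31 of them were protein coding. An unadjusted p under 0.05 was reached by 1996 members, 980 of them higher and 1016 lower. Every WT value lay above every cKO-labelled one for 1602 members (10.5%), and the reverse held for 1171 (7.66%). Log2 changes were negative for 45.4% of members. In the authors' deposited table, 343 of the 8774 members with an adjusted p were lower (3.91%) and 158 higher (1.8%), and 34 of the 35 were among them in the same direction. The exception, Gm15454, has no adjusted p there. After quantile normalization 16 members were higher and 13 lower, and 15 of the 35 passed.

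Most of these calls were lost when certain single libraries were left out. Leaving out a library also leaves fewer replicates, and the part of that in the losses was not tested. When WT2, WT3, cKO1 or cKO3 was dropped, 1 of the 35 still passed, and in each case it was Prcd. Without WT1 or cKO2, 33 of the 35 passed, and the number of members past the threshold rose to 79 and 135. The genes kept their direction in all 17 alternative settings, with Gm15454 tested in 16 of them, and no left-out library moved a log2 change among them by more than 0.42. The WT libraries differed more from each other than the cKO-labelled ones did: their root mean square log2 distances over members were 0.939 to 1.02 within WT, 0.584 to 0.781 within cKO and 0.825 to 1.02 between groups.

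**Figure D2:**
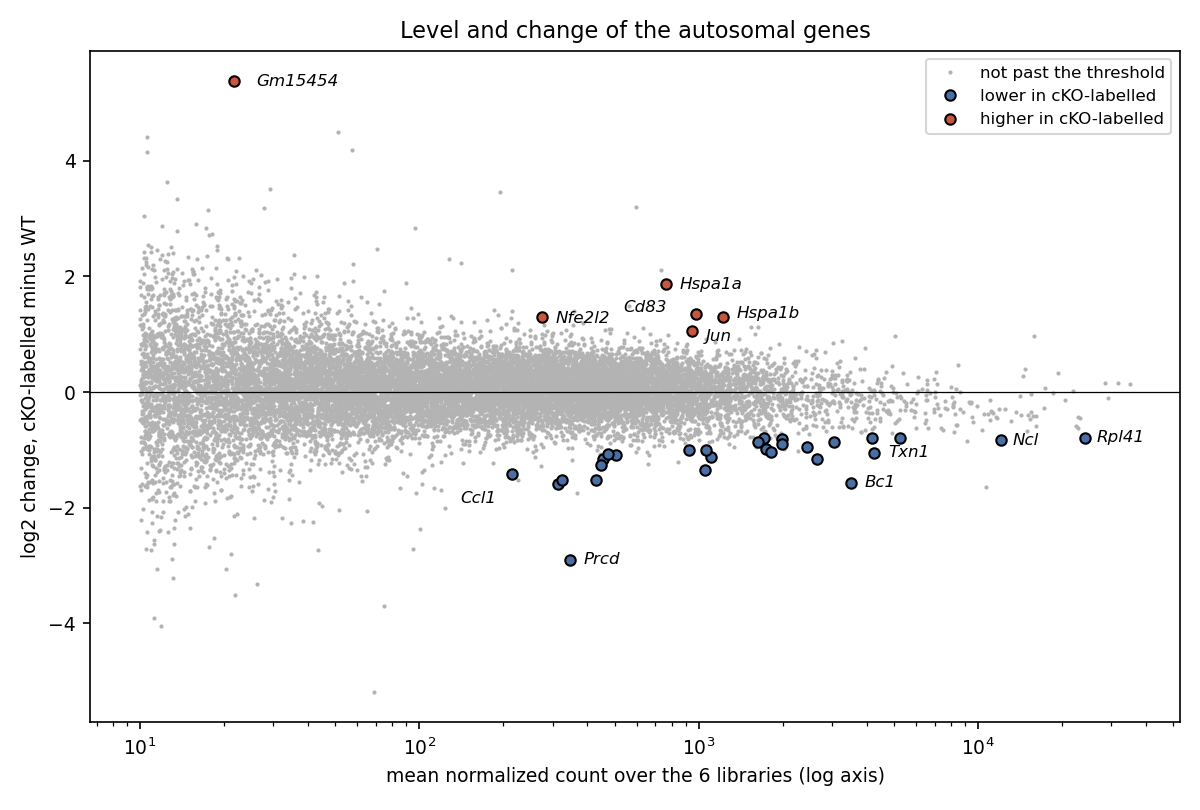
Mean normalized count over the 6 libraries (log axis) against log2 change, cKO-labelled minus WT, for 15279 members. Blue points are the 29 lower and red points the 6 higher genes past the threshold, and grey points the rest; 24 of the 35 coloured genes lie in the highest quintile of levels.

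**Figure D3:**
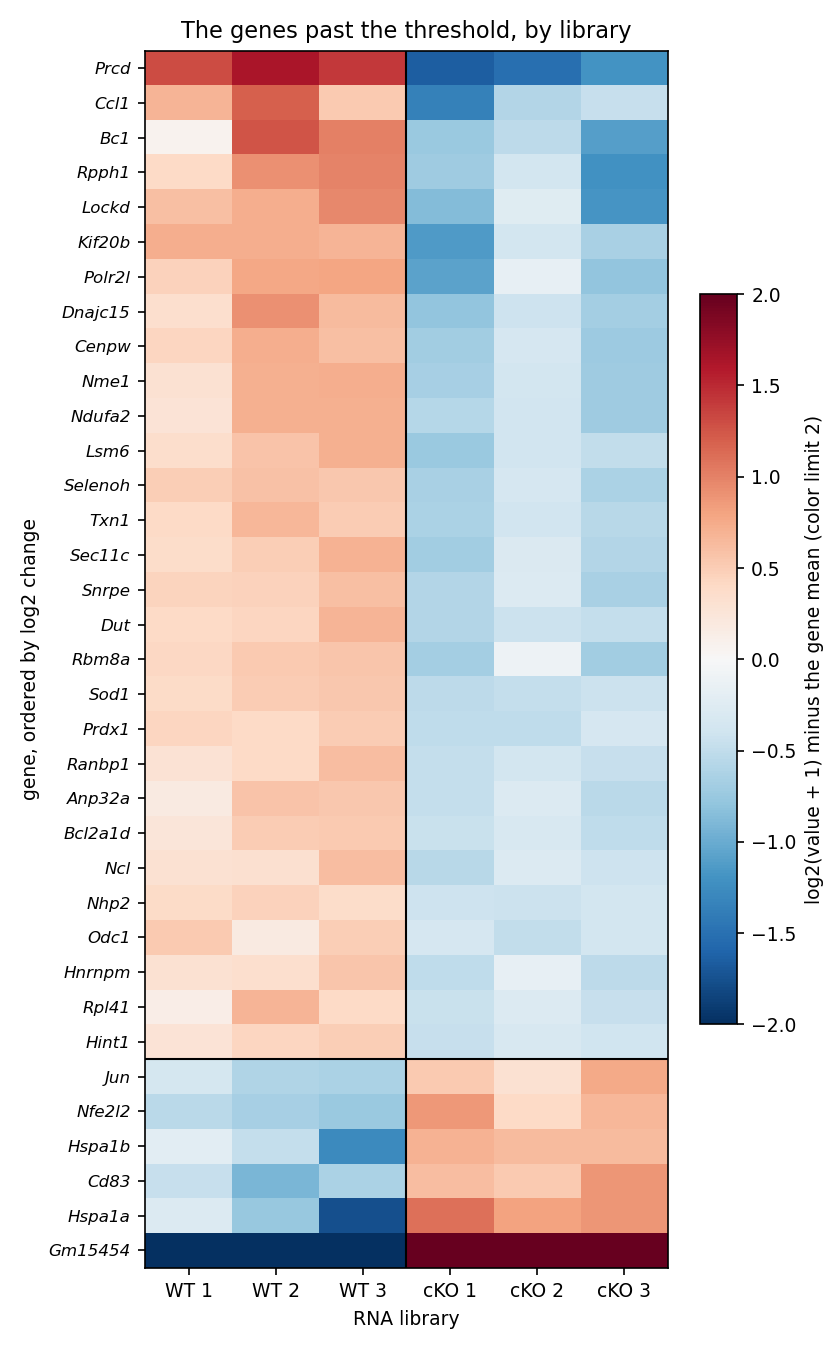
Log2(value + 1) of the 35 genes past the threshold in each of the 6 libraries, minus the gene's mean over them, with the color scale limited to 2 in either direction. Each row changes sign between the WT and the cKO-labelled columns.

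Prcd fell the most among the 29. This gene encodes a small membrane protein known from photoreceptor outer segment discs. It lies on chromosome 11, 116653889 to 116668389. Its values were 552, 690.0 and 593 in WT against 70.2, 77.9 and 96.1 in cKO-labelled libraries. All WT libraries lay far above all cKO-labelled ones. The means were 612 ± 71 and 81.4 ± 13.3 (SD, n = 3 each), 7.46-fold lower, with a log2 change of -2.90 (SE 0.229, limma adjusted p = 0.00023). Over the 6 fits that each left out a library the change was -3.02 to -2.80 and the adjusted p 0.000338 to 0.00689.

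No other gene tested around Prcd passed. Of 11 tested genes of its neighbourhood, 1 fell, 0 rose and 6 had a positive log2 change, with a list median of 0.05. That median was negative after quantile normalization, with a mean of at least 50 and without any of WT2, WT3, cKO1, cKO2 or cKO3, reaching -0.15 without cKO1, and it was 0.16 without WT1. Srsf2, a splicing factor gene, was at 3095, 3831 and 3639.8 in WT and 2326, 2018 and 2302 (log2 change -0.67, adjusted p = 0.0792). Rhbdf2, which encodes the inactive rhomboid iRhom2, was at 364, 218 and 238 in WT and 488, 319 and 444 (0.62, adjusted p = 0.337). Prcd shares 616 bp with its neighbour Cygb, cytoglobin, whose mean was 42.1, and the strand setting of the counting is not given in the sources used here.

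Open chromatin at the start of Prcd, read by ATAC-seq in 3 WT and 3 cKO-labelled libraries other than the RNA ones, was also lower. The region chr11:116656573-116658647 had a peak in all 6 lists. Its heights, in tags scaled to a common total per library, were 155.5, 96.9 and 165.6 in WT against 54.2, 50.8 and 50.2 in cKO-labelled libraries. The groups did not overlap. The log2 change was -1.07 with library medians subtracted (limma adjusted p = 3.99e-05), -1.43 after quantile normalization (0.000231) and -0.79 per kb of peak (0.0024). Of all 33531 regions in all 6 lists, 5.48% were lower and 28.0% higher with medians subtracted, and 4.33% and 3.67% after quantile normalization. The stretch chr11:116656918-116656991 (plus strand, GRCm38.p6, RefSeq) lies in that region and before one annotated start of Prcd. It is shown because it holds a pair of heat shock element matches, the motif GAANNTTC that reads the same on both strands, in capitals.

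Prcd: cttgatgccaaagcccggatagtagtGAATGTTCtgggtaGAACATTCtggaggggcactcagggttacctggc

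The matches begin 164 and 150 bases before that start. The same motif was in 874 of 11392 member promoters (7.67%) and in 3 of 24 (12.5%) of those of genes that fell.

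Genes of thioredoxin and superoxide chemistry fell in the cKO-labelled libraries. Txn1 encodes cytosolic thioredoxin, the reductase partner that restores oxidized peroxiredoxins and ribonucleotide reductase. It was at 5248, 6315 and 5658 in WT and 2562, 3042 and 2706. Every WT library exceeded every cKO-labelled one by a wide margin. Txn1 fell 2.07-fold (log2 change -1.05, SE 0.135, limma adjusted p = 0.0144). Prdx1, a peroxiredoxin that breaks down hydrogen peroxide with electrons from thioredoxin, was at 2559.8, 2506 and 2698 in WT and 1337, 1339.5 and 1511 (log2 change -0.89, adjusted p = 0.0421). Sod1, the copper-zinc superoxide dismutase, was at 3004, 3277 and 3344 in WT and 1611, 1664 and 1703 (-0.95, adjusted p = 0.0221). The 3 cKO-labelled values of Sod1 lay close together, far below WT. With WT2, WT3, cKO1 or cKO3 left out in turn the adjusted p was 0.0597 to 0.133 for Txn1, 0.0832 to 0.236 for Prdx1 and 0.079 to 0.215 for Sod1. Selenoh, a nuclear selenoprotein of the redox-active kind, fell from 622, 661 and 641 to 283, 351 and 284 (-1.07, adjusted p = 0.0438, and 0.128 to 0.271 with each of those 4 libraries left out in turn).

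Among 9 genes listed as NRF2 targets of the thioredoxin and sulfiredoxin arm, 2 fell (Txn1 and Prdx1), 0 rose, all 9 had negative log2 changes and the median was -0.67. The 9 were chosen with earlier results of these data known, so their count does not stand for NRF2 targets in general. Most glutathione genes and Nqo1 are in other lists, given below mainly as counts and medians, without values for Nqo1 itself. Those lists were more mixed. Groups did not overlap for 6 of the 9 (66.7%), against 10.5% of members on the lower side. Srxn1, sulfiredoxin, which repairs over-oxidized peroxiredoxins, was at 156, 89.4 and 145 in WT and 43.2, 30.4 and 47.0 (log2 change -1.65, adjusted p = 0.082). Txnrd1, thioredoxin reductase, was at 2708, 1853 and 1821 in WT and 1495, 1002 and 1494 (-0.68, adjusted p = 0.187). Neither passed, and in both every WT library was above every cKO-labelled one. Gclc, the catalytic subunit of glutathione synthesis, was at 317, 289 and 224 in WT and 147, 151 and 229, with overlap (-0.67, adjusted p = 0.312). Some of these 9 genes are also in the list of 20 thioredoxins and peroxiredoxins. In that list 2 fell, 19 had negative changes, 12 (60%) did not overlap on the lower side and the median was -0.35.

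In the other antioxidant lists Sod1 was the 1 gene that passed. Among 21 superoxide, peroxide and glutathione genes, 1 fell (Sod1), 0 rose, 15 were negative, 6 positive (up to 0.50) and the median was -0.21. Gpx4, which reduces lipid peroxides, was at 656, 1077 and 1091 in WT and 492, 541 and 566 (log2 change -0.78, adjusted p = 0.142). Ccs, the copper chaperone of Sod1, was at 634, 462 and 554 in WT and 353, 413 and 409.9 (-0.48, adjusted p = 0.338). Among 13 genes of Nqo1, heme and iron handling 0 passed, 10 were negative, 3 positive (up to 0.43) and the median was -0.33. The transferrin receptor gene Tfrc was at 4446, 3968 and 3904 in WT and 2983, 2249 and 2974 (-0.60, adjusted p = 0.119). Among 12 genes of NADPH supply 0 passed, 8 were negative and the median was -0.23, which was -0.07 without WT1 and -0.15 without cKO1.

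Inducible heat shock and early response genes were 3 of the 6 genes that rose. Hspa1a and Hspa1b encode inducible HSP70. Hspa1a was at 507, 364 and 180.2 in WT against 1322, 1079 and 1138 in cKO-labelled libraries. Its WT values were spread widely and its cKO-labelled values were not, without overlap. Hspa1a rose 3.64-fold (log2 change 1.87, SE 0.298, limma adjusted p = 0.0421). Hspa1b was at 942, 787 and 454 in WT and 1774, 1689 and 1692 (1.304, adjusted p = 0.0438). The pair is nearly identical in sequence, so reads may have been split between them and the values are uncertain gene by gene. Jun, a subunit of the AP-1 transcription factor, was at 691, 578 and 567 in WT and 1269.8, 1094 and 1492 (1.06, SE 0.175, adjusted p = 0.0425). With WT2, WT3, cKO1 or cKO3 left out in turn the adjusted p was 0.0832 to 0.176 for Hspa1a, 0.0977 to 0.236 for Hspa1b and 0.0977 to 0.236 for Jun, and for Hspa1b it was 0.0563 without cKO2.

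Each of these 3 genes has the motif GAANNTTC upstream, and the windows are shown because 3 of the 4 risen genes with a promoter entry hold it. The capitals mark the motif. The windows, from RefSeq on GRCm38.p6, are chr17:34972227-34972286 for Hspa1a, chr17:34959309-34959368 for Hspa1b and chr4:95052317-95052376 for Jun, all on the minus strand.

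Hspa1a: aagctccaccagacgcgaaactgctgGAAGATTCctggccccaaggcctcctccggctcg

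Hspa1b: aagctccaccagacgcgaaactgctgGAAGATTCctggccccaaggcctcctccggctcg

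Jun: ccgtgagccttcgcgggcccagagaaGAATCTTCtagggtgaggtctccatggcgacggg

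The motif begins 104 bases before the start in Hspa1a and Hspa1b and 128 before that of Jun. The promoters of Hspa1a and Hspa1b were identical at 247 of the 250 bases before the start, so they are not separate examples. In the list of heat shock chaperones 11 of 28 promoters held the motif (39.3%), against 7.67% of all member promoters. Of the genes that fell, 3 of 24 held it too (12.5%), Prcd among them.

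The wider chaperone and early response lists were mixed. Of 34 heat shock chaperones 2 rose (Hspa1a and Hspa1b) and 1 fell (Dnajc15), with 13 negative and a median of 0.13, which ran from -0.01 without WT2 to 0.25 without cKO2. Dnajc15, a J protein of the mitochondrial import motor, was at 506, 759.8 and 626 in WT and 231, 301 and 252 (log2 change -1.26, adjusted p = 0.0438, and 0.128 to 0.258 with WT2, WT3, cKO1 or cKO3 left out). Hsp90aa1, the inducible HSP90, was at 7948, 9766 and 9203 in WT and 6279, 5631 and 5479, the opposite side from Hspa1a (-0.63, adjusted p = 0.0681). Of 13 members of the CCT chaperonin and prefoldin, which fold actin and tubulin, 0 passed, all 13 were negative and the median was -0.31. Groups did not overlap for 7 of the 13 (53.85%), against 10.5% of members on the lower side. Among 27 AP-1 and early response genes 1 rose (Jun), 0 fell, 21 were positive, 5 did not overlap on the higher side (18.5%) and the median was 0.19, or 0.09 without WT2 and 0.10 without cKO3. Fosb, a partner of Jun, was at 162, 147 and 155 in WT and 288, 227 and 387 (0.92, adjusted p = 0.142). Among 17 NF-kappaB subunits and feedback genes 0 passed, 15 were positive and the median was 0.23, or 0.34 without WT1 and 0.36 without cKO2. Groups did not overlap for 5 of the 17 (29.4%), against 7.66% of members on the higher side. Medians of single libraries, with each gene centred on its mean, overlapped in this list (0.11 in WT1, -0.13 in cKO2). They also overlapped among the early response genes (0.08 in WT1, -0.09 in cKO2). Tnfaip3, which encodes the NF-kappaB inhibitor A20, was at 1266, 940.2 and 973 in WT and 1872, 1407 and 2026 (0.73, adjusted p = 0.119).

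Cd83, a surface protein induced on activated lymphocytes and mature dendritic cells, rose 2.54-fold. It was at 632, 461 and 562 in WT against 1332, 1255 and 1608 in cKO-labelled libraries. The cKO-labelled values lay far above the WT values. The log2 change was 1.35 (SE 0.179, limma adjusted p = 0.0175), and dropping WT2, WT3, cKO1 or cKO3 gave an adjusted p of 0.0597, 0.1, 0.11 or 0.125. The sums of myeloid and dendritic markers, given above, overlapped between the groups. Which cells the Cd83 reads came from was not tested. Of 24 checkpoint and activation receptors 1 rose (Cd83), 0 fell, 15 were positive and the median was 0.20, which was 0.09 without cKO3, 0.11 without WT3 and 0.33 without cKO2. The centred library medians of this list overlapped, with WT1 at 0.05 and cKO2 at -0.097. Lag3, an inhibitory receptor, was at 177, 136 and 121 in WT and 239, 228 and 265 (0.76, adjusted p = 0.214).

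Among secreted products of Th2 cells 1 gene fell. Ccl1, the chemokine ligand of CCR8 made by activated Th2 cells, was at 423, 604 and 379.5 in WT against 103, 175 and 192 in cKO-labelled libraries. The cKO-labelled values lay far below the WT values. Ccl1 fell 3.02-fold (log2 change -1.60, SE 0.278, limma adjusted p = 0.0438, and 0.125 to 0.236 with WT2, WT3, cKO1 or cKO3 left out). Its own list of 10 chemokines had 1 fall (Ccl1), 6 negative and 4 positive changes and a median of -0.10, or 0.15 without WT3. Among 17 cytokine genes, which do not include Ccl1, 0 passed, 11 were negative and the median was -0.25, which was -0.68 without WT2. Groups did not overlap on the lower side for 7 of the 17 (41.2%), against 10.5% of members. Il13, which drives mucus and airway reactivity, was at 1093, 693 and 645 in WT and 322, 438 and 394 (-1.04, adjusted p = 0.0834). Il9, a mast cell growth factor, was at 14.6, 130.3 and 89.5 in WT and 6.87, 4.41 and 13.7 (-2.74, adjusted p = 0.163). Il22 was at 12.9, 27.0 and 30.0 in WT and at 1.68, 0 and 0 (adjusted p = 0.129). All 3 separated the groups, Il9 only narrowly (14.6 in WT1 against 13.7 in cKO3). Il9 and Il22 met the mean of 10 only through their WT values. Csf1, the macrophage growth factor, went the other way, at 372, 238 and 285 in WT and 601, 557 and 717 (1.08, adjusted p = 0.065).

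Of 20 Th2 transcription factors and receptors 0 passed and 16 were positive. The list median was 0.37, or 0.23 without cKO3. Every cKO-labelled value exceeded every WT value for 2 of them (10%), against 7.66% of members. Bhlhe40, a factor needed for cytokine production by helper T cells, was at 2563, 1878 and 2014 in WT and 4254, 2780.5 and 4736 (0.84, adjusted p = 0.104). Irf4, a factor of activated Th2 cells, was at 1608, 1150.2 and 1299 in WT and 2277, 1495 and 2438, with overlap (0.60, adjusted p = 0.245). Ccr8, the receptor of CCL1, was at 204, 159 and 193 in WT and 293, 232 and 356 (0.65, adjusted p = 0.295). Stat4, the Th1 signal transducer, was at 707, 924 and 789 in WT and 358, 439 and 435, just short of the threshold (-0.97, adjusted p = 0.0613). It is in a list of 16 Th1, Th17 and regulatory T cell factors, of which 0 passed, 9 were negative and 7 positive. The median of that list was -0.03, and it was positive in 3 settings, up to 0.15 with a mean of at least 50.

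Cell division genes had mostly negative log2 changes. Of 52 genes of mitosis, kinesins and centromeres 2 fell, 0 rose, 49 had negative log2 changes, 21 (40.4%) did not overlap on the lower side, against 10.5% of members, and the median was -0.40. Kif20b, a kinesin of late mitosis, was at 316, 316 and 305 in WT and 86.6, 148 and 121 (-1.42, SE 0.253, limma adjusted p = 0.0459). Its WT values were nearly equal and lay far above all cKO-labelled values. Cenpw, a centromere protein, was at 562, 689.5 and 633 in WT and 258, 331 and 252 (-1.17, adjusted p = 0.0438). Of 44 genes of the DNA replication machinery 1 fell (Dut), 41 were negative, 25 (56.8%) did not overlap and the median was -0.50. Leaving out WT2, WT3, cKO1 or cKO3 in turn, the adjusted p was 0.131 to 0.271 for Kif20b and 0.128 to 0.271 for Cenpw, and for Kif20b it was 0.0571 without WT1. The centred medians of the mitosis list were 0.43, 0.13 and 0.15 in the WT libraries and -0.23, -0.34 and -0.04 in the cKO-labelled ones.

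Genes of nucleotide and polyamine supply fell as well. Dut, the dUTPase that keeps uracil out of DNA, was at 1140.1, 1164 and 1393 in WT and 578, 641 and 626 (log2 change -0.997, SE 0.162, limma adjusted p = 0.0421). Nme1, a nucleoside diphosphate kinase, was at 2981, 3982 and 4000.5 in WT and 1534, 1890.2 and 1482 (-1.16, SE 0.163, adjusted p = 0.0221). Both had no overlap. Nme2, its close relative next to it on chromosome 11, was at 4846, 5713 and 4722 in WT and 3000.5, 3534 and 3259 (-0.64, adjusted p = 0.0785), and reads of the 2 may have been split. Odc1, ornithine decarboxylase, the first enzyme of polyamine synthesis, was at 7268, 5720.0 and 7089.5 in WT and 3993, 3573 and 3888 (-0.80, adjusted p = 0.0438). With WT2, WT3, cKO1 or cKO3 left out in turn the adjusted p was 0.0832 to 0.258 for Dut, 0.0832 to 0.215 for Nme1 and 0.0597 to 0.274 for Odc1, and for Odc1 it was 0.0525 without WT1. Of 33 nucleotide synthesis enzymes 1 fell (Nme1), 25 were negative and the median was -0.21, or -0.13 without WT1.

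Several genes of RNA processing and nuclear transport fell. Snrpe, a core protein of spliceosomal particles, was at 1366, 1376 and 1518 in WT and 664, 832 and 637 (log2 change -1.01, SE 0.165, limma adjusted p = 0.0421). Lsm6, of the ring that binds U6 RNA, was at 601, 703 and 769.8 in WT and 279.8, 360.2 and 333 (-1.09, adjusted p = 0.0438). These were the 2 of 35 spliceosome Snrp and Lsm genes that fell, with 25 negative and a median of -0.33. Rbm8a, a part of the exon junction complex, was at 2166, 2334 and 2400.3 in WT and 1017, 1522 and 1006 (-0.99, adjusted p = 0.0466). Hnrnpm, a splicing regulator, fell by 0.80 (adjusted p = 0.0499). Polr2l, a subunit shared by the nuclear RNA polymerases, was at 1289, 1602 and 1626 in WT and 447, 834 and 539 (-1.35, adjusted p = 0.0421), the 1 fall among 28 RNA polymerase subunits, whose median was -0.09, or -0.26 without WT2 and -0.13 without cKO1 or cKO3. Ranbp1, a cofactor of the Ran nuclear transport cycle, fell by 0.87, and Anp32a, a nuclear acidic protein, by 0.86 (adjusted p = 0.0438 each). The adjusted p with WT2, WT3, cKO1 or cKO3 left out was 0.0927 to 0.258 for Snrpe, 0.128 to 0.299 for Lsm6, 0.131 to 0.271 for Rbm8a and 0.112 to 0.216 for Polr2l, and it was 0.0977 to 0.317 for Hnrnpm, Ranbp1 and Anp32a.

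Noncoding RNAs transcribed by RNA polymerase III were among the falls. Bc1, a short cytoplasmic RNA, was at 3070.3, 7007 and 5884 in WT and 1752, 2033 and 1366 (log2 change -1.57, SE 0.256, limma adjusted p = 0.0421). Its WT values ranged widely, with the lowest still above every cKO-labelled value. Rpph1, the RNA of ribonuclease P that trims transfer RNA, was at 366, 522 and 556 in WT and 169.8, 215 and 119 (-1.53, adjusted p = 0.0438). Of 8 tested small nuclear and structured RNAs these 2 fell, 7 were negative and the median was -0.53. The list also held the protein-coding gene Lars2, left out here after its values were seen, with which the median was -0.91. Lockd, a long noncoding RNA transcribed near the cell cycle inhibitor gene Cdkn1b, was at 561, 612 and 725 in WT and 203, 314 and 164 (-1.52, adjusted p = 0.0421). When WT2, WT3, cKO1 or cKO3 was left out the adjusted p was 0.107 to 0.216 for Bc1, 0.131 to 0.244 for Rpph1 and 0.0977 to 0.216 for Lockd.

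Ribosome assembly and ribosomal protein genes had mostly negative log2 changes. Ncl, nucleolin, a nucleolar protein of ribosomal RNA synthesis, was at 14320.0, 14466 and 17833 in WT and 7856, 9613 and 8648 (log2 change -0.83, SE 0.132, limma adjusted p = 0.0421). Nhp2, of the particles that modify ribosomal RNA, was at 2490.2, 2640.4 and 2479.6 in WT and 1431, 1421 and 1485 (-0.81, adjusted p = 0.0426), and it shares 46 bp with Rmnd5b. Rpl41, a very short ribosomal protein, was at 25310.0, 36888 and 30383 in WT and 16935, 19127 and 16746 (-0.80, adjusted p = 0.0438). Of 27 genes of Myc and ribosome biogenesis 2 fell (Ncl and Nhp2), 22 were negative and the median was -0.24, or -0.16 without WT1. Of 80 cytosolic ribosomal protein genes 1 fell (Rpl41), 72 were negative and the median was -0.33, which was -0.15 after quantile normalization. Groups did not overlap for 50 of the 80 (62.5%), against 10.5% of members on the lower side. By the authors' adjusted p 19 of the 80 were lower and 0 higher, beside 3.91% lower among members with such a value. Ribosomal protein transcripts took 10.4% to 12.9% of the total in WT and 8.87% to 10.8%, which overlap. With WT2, WT3, cKO1 or cKO3 left out in turn the adjusted p was 0.079 to 0.269 for Ncl, 0.0977 to 0.271 for Nhp2 and 0.101 to 0.286 for Rpl41. The ETS core CCGGAAG, on either strand, was in 24 of 56 ribosomal protein promoters (42.9%), 26 of 69 of mitochondrial ribosomal proteins (37.7%) and 18.1% of all member promoters.

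Nuclear-encoded mitochondrial genes had mostly negative values with few calls. Of all members, 45.4% had negative log2 changes and 10.5% did not overlap on the lower side. Of 34 complex I subunits 1 fell, 32 were negative, 24 (70.6%) did not overlap and the median was -0.47. Ndufa2, that 1 subunit, was at 1231, 1667 and 1676 in WT and 687, 781 and 622 (log2 change -1.12, limma adjusted p = 0.0421, and 0.0977 to 0.216 with WT2, WT3, cKO1 or cKO3 left out), and it shares 69 bp with Tmco6. Of 46 genes of complexes II to IV and ATP synthase 0 passed, 40 were negative, 28 (60.9%) did not overlap and the median was -0.38. Atp5e, an ATP synthase subunit, was at 2280.2, 3364 and 3466 in WT and 1284, 1940.4 and 1269 (-1.02, adjusted p = 0.065). Of 78 mitochondrial ribosomal proteins 0 passed and 73 were negative (median -0.31), and of 26 import genes 1 fell, Dnajc15, with 22 negative (median -0.39). By the authors' adjusted p, 9 of the 34, 18 of the 46, 16 of the 78 and 5 of the 26 were lower and 0 higher. Of members with such a value, 3.91% were lower and 1.8% higher. Transcripts of the mitochondrial genome took 2.15% to 3.35% of the total in WT and 2.91% to 4.47% in the cKO-labelled libraries, ranges that overlap.

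Of 47 proteasome subunits 0 passed, 44 were negative, against 45.4% of members, and the median was -0.36. Groups did not overlap for 29 of the 47 (61.7%), against 10.5% of members on the lower side. By the authors' adjusted p 15 of the 47 were lower and 0 higher, beside 3.91% lower among members with such a value. Psmb10, a catalytic subunit of the immunoproteasome, was at 696, 1059 and 962 in WT and 366, 481 and 413 (log2 change -1.09, limma adjusted p = 0.0546). Psmb7, a catalytic subunit of the standard proteasome, was at 2286, 2638 and 2441 in WT and 1490.5, 1511 and 1497 (-0.71, adjusted p = 0.0634). Sec11c, a signal peptidase subunit of the secretory pathway, did fall, from 2205, 2393 and 2756 to 1053, 1392 and 1134 (-1.04, adjusted p = 0.0421). Hint1, a nucleotide hydrolase, fell by 0.79 (adjusted p = 0.0466). Bcl2a1d, of a family of near-identical survival genes, fell by 0.85 (adjusted p = 0.0438). Its relative Bcl2a1b was at 2221, 2695 and 2523 in WT and 1749, 1993 and 1797 (-0.42, adjusted p = 0.247), and reads of the 2 may have been split. Leaving out WT2, WT3, cKO1 or cKO3 gave an adjusted p of 0.0832 to 0.223 for Sec11c and 0.128 to 0.324 for Hint1 and Bcl2a1d. Gm15454, a pseudogene, was listed at 0 in all WT libraries and at 66.5, 29.0 and 34.4 in the cKO-labelled ones (adjusted p = 0.0438). Its adjusted p was 0.0805 without cKO2 and 0.079 to 0.469 with WT2, WT3, cKO1 or cKO3 left out. Gm15454 met the rule only through its cKO-labelled values, and its reads may belong to the gene it copies.

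Most chromatin regulator and zinc finger genes had positive log2 changes, and 0 passed. Of 31 DNA methylation, Polycomb and chromatin enzymes 0 passed, 23 had positive log2 changes, 4 (12.9%) did not overlap on the higher side and the median was 0.27. The centred library medians of this list overlapped, with WT1 at 0.05 and cKO2 at -0.095. Ep400, a chromatin remodeler, was at 478, 286 and 439 in WT and 1069.7, 649.8 and 866 (1.11, limma adjusted p = 0.0834). Arid1a, a subunit of the BAF remodeler, was at 715, 817 and 705 in WT and 1092, 971 and 1162 (0.53, adjusted p = 0.197). Of 336 zinc finger genes with Zfp names 0 passed, 225 were positive, 29 (8.63%) did not overlap on the higher side, close to the 7.66% of members, and the median was 0.16, or 0.10 without WT2. Library medians overlapped here too, with WT1 at 0.004 and cKO2 at -0.027.

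**Figure D4:**
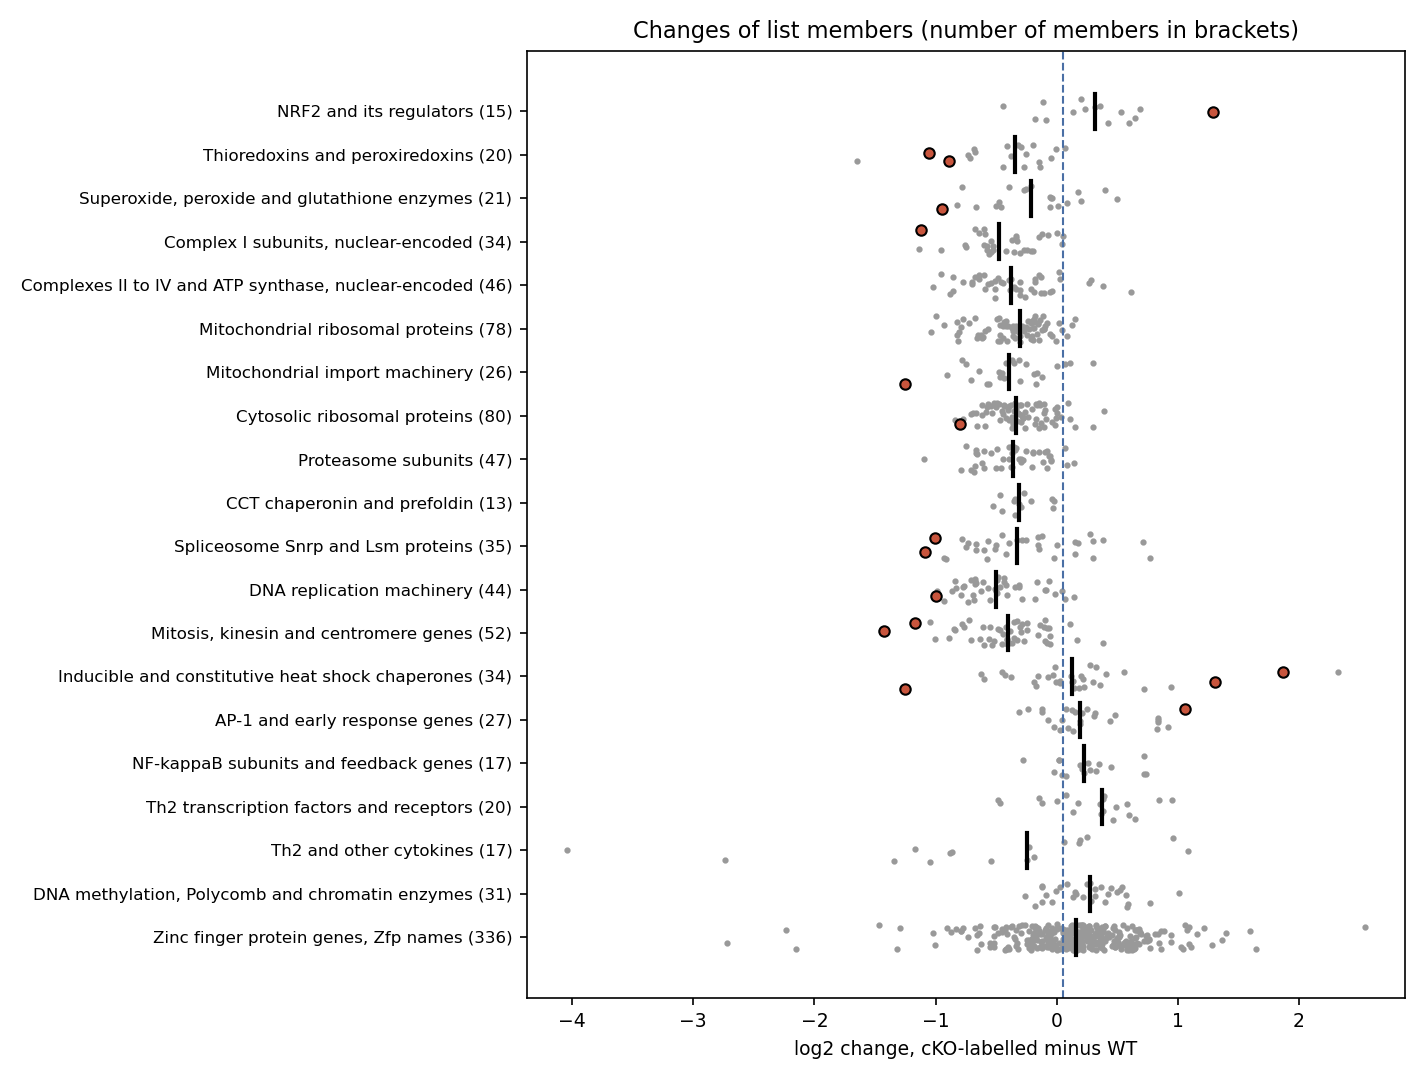
Log2 changes of the members of 20 gene lists. Each dot is a gene, red where past the threshold, the black bar is the list median and the dashed blue line the median of all members, 0.05. Medians run from -0.50 in DNA replication to 0.37 among Th2 factors, and each list holds at most 2 red dots except the chaperones, which hold 3.

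The lists differ in gene length, and the change moved with it. From the quintile of members with the shortest genomic span to the quintile with the longest, the median log2 change was -0.03, -0.02, 0.04, 0.09 and 0.14. Of the 29 genes that fell 11, 8, 6, 4 and 0 lay in these quintiles. From the lowest to the highest quintile of level the median change was 0.08, 0.05, 0.06, 0.08 and 0.01, with no steady order. The median span was 8.56 kb for genes that fell, 3.00 kb for genes that rose and 20.2 kb for members. Among 428 members in both the shortest quintile of span and the highest quintile of level the median change was -0.24 and 76.4% were negative. Among 468 in the longest and the highest it was 0.20 and 25.2% were negative. The median span was 3.17 kb for ribosomal proteins, 8.10 kb for complex I, 15.1 kb for replication genes, 17 kb for mitosis genes and 72.7 kb for the chromatin enzymes. The difference of shortest minus longest quintile was 0.05, 0.19 and 0.14 in the WT libraries and -0.12, 0.01 and -0.15 in the cKO-labelled ones, so cKO2 lay nearer to WT. The part of span and level in the list results was not tested. Precision also followed level: 20 of the 29 falls and 4 of the 6 rises were in the highest quintile of level, where the median SE was 0.18, against 0.70 in the lowest quintile, which held 1 call.

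**Figure D5:**
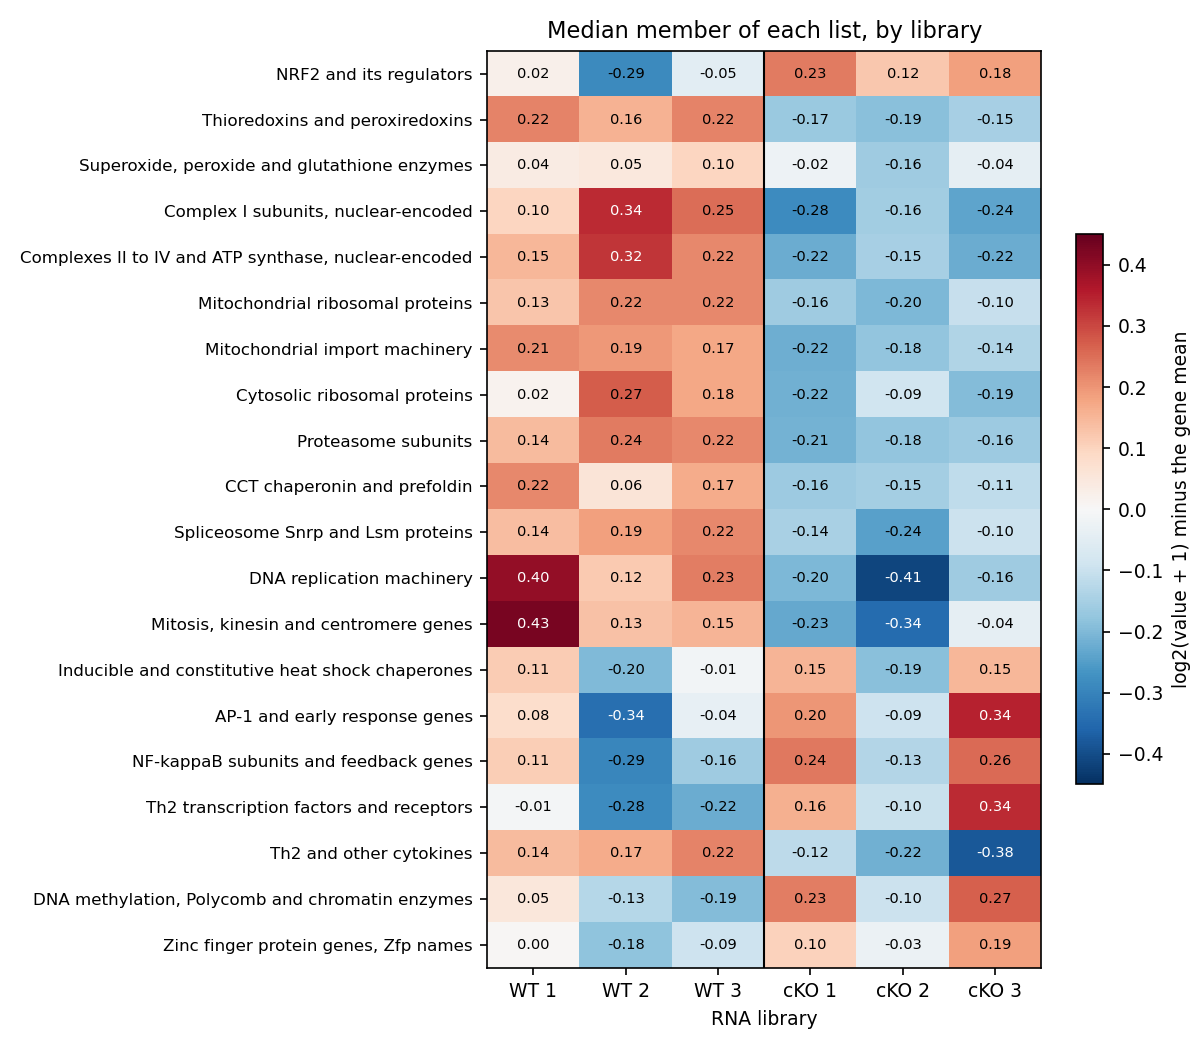
Median log2(value + 1) of 20 gene lists in each of the 6 libraries, each gene centred on its mean. For complex I the WT libraries are at 0.10, 0.34 and 0.25 and the cKO-labelled ones at -0.28, -0.16 and -0.24, while for Th2 factors WT1 and cKO2 lie between the others.

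Several genes fell just outside the threshold with groups that did not overlap. On the lower side, Tbcb, a tubulin folding cofactor, was at 554, 616 and 749 in WT and 236, 358 and 236 (log2 change -1.22, limma adjusted p = 0.0504). Phgdh, the first enzyme of serine synthesis, was at 1315, 1186 and 1372 in WT and 722, 702 and 747 (-0.83, adjusted p = 0.0546). Stmn1, stathmin, which destabilizes microtubules, was at 2435, 2185 and 2424 in WT and 1414, 1440.1 and 1358 (-0.74, adjusted p = 0.0546). On the higher side, Mbnl1, a splicing regulator, was at 2864, 2843 and 2980.5 in WT and 5378, 3975 and 5605 (0.77, adjusted p = 0.0635). Map3k7, the kinase TAK1 upstream of NF-kappaB, was at 1325, 695 and 899 in WT and 2296, 1515 and 2491 (1.13, adjusted p = 0.0799). Sesn2 and Sesn3 encode sestrins, stress-induced inhibitors of mTORC1. Sesn2 was at 883, 729 and 786 in WT and 1624, 1115 and 1719.8 (0.87, adjusted p = 0.083). Sesn3 was at 514, 384 and 401 in WT and 811, 717 and 846 (0.88, adjusted p = 0.0779). Ubr2, a ubiquitin ligase, and Crebrf, a regulator of the unfolded protein response, had log2 changes of 0.89 (adjusted p = 0.065) and 1.28 (0.0723).

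ATAC heights were read at the starts of the changed genes. A region in all 6 lists lay at the start of 28 of the 35, 24 of them lower and 4 higher in RNA. With library medians subtracted, 1 of the 24 was lower (Prcd) and 18 were higher, beside 0.599% and 69.1% of the 9010 member starts with such a region, and 3 of the 4 genes higher in RNA were higher there. After quantile normalization 2 of the 24 were lower, Prcd and Txn1 (log2 change -0.26, limma adjusted p = 0.0397), and 2 higher, Nme1 (0.33, 0.0363) and Lsm6 (0.58, 0.041), beside 2.88% and 5.63% of all starts. Under that normalization the changes were 0.02 at Sod1, 0.00 at Nfe2l2 and -0.02 at Jun. Hspa1a, at 0.61 (adjusted p = 0.0346), was the 1 of the 4 genes higher in RNA that was also higher there after quantile normalization.

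The genes nearest the limit of the rule carried little information. Just above the mean of 10, Gcnt2 had values of 2.24, 9.28 and 0 in WT and 20.4, 26.6 and 1.49, and 1810010H24Rik had 6.48, 0 and 17.4 in WT and 7.14, 11 and 18.1. Just below it, Rec8 had 6.79, 0 and 6.95 in WT and 17.6, 19.7 and 8.89, and AY074887 had 3.93, 6.43 and 21.1 in WT and 9.32, 11.5 and 7.66. The groups overlapped in all but Rec8. A further 5286 autosomal genes lay below the rule, and 2225 tested genes, 1933 of them with Gm names, had no chromosome in the gene table and are not members.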

How the data were processed

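RNA was extracted with a Zymo kit and made into libraries with NEBNext Ultra II, per the labels' protocols. Values in the deposited RNA table are a signal: counts that the authors normalized, with decimals, beside the authors' own log2 fold change, p-value and adjusted p-value. HOMER 4.11, DESeq2, STAR, Bowtie2 2.3.5.1, edgeR, RSEM 1.3.3 and the mm10 build are named, without settings or roles, per the submitters' processing notes. The deposited ATAC peak lists, 1 per library, give a signal (tags scaled to a common total) and a score in unscaled tags, per the file headers; the libraries held 13149952 to 18327127 tags.

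Genes with a mean of at least 10 were compared as cKO minus WT on log2(value + 1) by limma 3.58.1 in R 4.3.3, using eBayes with its trend option, with Benjamini-Hochberg adjustment over all 18074 genes and a threshold of 0.05. Chromosomes came from the RefSeq gene table by symbol (15786 matches) or older symbol (50). Depth was estimated as the column total over the commonest low value, taken as a single read. Whole reads could not be recovered, since 64.9% to 72.6% of low values lay within 0.1 of a whole multiple of it. Peaks were merged across lists, and log2(height + 1) minus the library median was tested in the same way at regions in all 6 lists, read at those within 1 kb of a named gene's start. Lists are described by counts and medians beside all members, with no test of a list. The members and lists were chosen with earlier results of these data known. Named genes were Nfe2l2, Prcd, Txn1 and Cd83, all autosomal genes past the threshold, up to 4 per list by smallest p, up to 12 per direction just short of the threshold and 4 at the limit of the rule. The fit was tested on simulated data of 18074 genes. Of 100 genes given a log2 change of 1, 14 were called, as were 55 of 100 given a change of 2. All had the right sign, and there were 4 false calls among the genes given no change. The simulated noise was independent for each gene, without effects shared across a library, so these counts are not error rates for the real libraries. Alternatives were pseudocounts of 0.5 and 5, the authors' adjusted p, a replicate block, leaving out single libraries, and other filters, scalings and variance models. Other software was numpy 2.4.6, matplotlib 3.10.9, pandas 2.3.3 and Python 3.11.15.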

Additional observations from a re-analysis of the deposited data

How the results depend on the processing

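The number of members past the threshold was 35, with 6 higher and 29 lower. It was 3 (2 and 1) without the mean-variance trend, 1665 (882 and 783) when libraries were weighted by quality, with cKO replicate 1 weighted 7.43, 501 (158 and 343) by the authors' adjusted p, and 29 after quantile normalization, where 16 were higher and 13 lower. With each library left out in turn it ran from 1 to 135, with 0 to 49 higher and 1 to 86 lower. It stayed within 1.5 times the main number, at 28 to 49, with a pseudocount of 0.5 or 5, no filter, a mean of at least 50, trimmed mean rescaling, robust eBayes and autosomal genes only. An unadjusted p under 0.05 was reached by 1073 members without cKO replicate 1, against 1996. The labels do not say that replicate numbers pair the libraries, and same-numbered libraries correlated around their group means at 0.116, 0.206 and -0.055, other pairs at -0.271 to 0.215. With the replicate block 116 members passed, 30 higher and 86 lower, and 34 of the 35 were among them. The log2 change of Keap1 ran from -0.2523 to 0.0055 with each library left out, and was positive without WT replicate 3. Of 48 list medians 35 kept their sign in every setting. ATAC regions numbered 11223 (9387 higher and 1836 lower). They numbered 3488 (459 and 3029) without median subtraction, 2681 (1229 higher) after quantile normalization, and 5663 (4718 and 945) with the top 75 percent of peaks. With each library left out they numbered 9310 to 10101, and with the replicate block 11098. The cause of these differences was not tested. At about 5.39 to 8.71 M reads, genes in the lowest quintile of level had a median SE of 0.70, so changes there were not detectable unless very large.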
